A study of Mus musculus with 96 samples.

Results

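The livers of mothers whose light schedule was advanced during pregnancy were compared with those of mothers on a fixed schedule at ZT6, the middle of the light phase. Times are in zeitgeber hours (ZT), with ZT0 at lights on. The comparison holds 6 of the 96 samples of the series, 3 from shifted mothers and 3 from control mothers, chosen by the labelled stage, schedule and time of day. Shifted mothers were pregnant C57BL/6J mice whose lights were moved 8 h earlier every 5 days, in pregnancy only, and control mothers were pregnant C57BL/6J mice on a constant cycle of 12 h light and 12 h dark. Mothers were also sampled at ZT0, ZT12 and ZT18, and fetuses at the same 4 times. The gestational day, how long after an advance the livers were taken, and whether replicates were separate animals are not stated in the labels, so p-values measure the spread between these samples, which may be technical.

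The liver clock is a feedback loop of transcription. ARNTL pairs with CLOCK or with its relative NPAS2 and switches on genes through E-box sequences, among them the Period and Cryptochrome genes, whose proteins then block that pair. A second loop of nuclear receptors, the repressors NR1D1 and NR1D2 and the activator RORA, sets the daily rhythm of Arntl and Nfil3. The activators DBP, TEF and HLF and the repressor NFIL3 compete for D-box sequences and pass the time of day on to genes of bile acid, heme and drug metabolism.

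The libraries were stranded and made from poly(A) RNA. The deposited values are FPKM, fragments scaled to transcript length and library size, with no counts, so depth is unknown. Deposited FPKM summed to between 558630 and 628997 in the 6 libraries. All 10 hepatocyte markers were measured, and their summed level ran from 94805 to 189120 FPKM in shifted mothers and from 135119 to 171447 FPKM in control mothers. Placenta and fetal liver markers summed to 0.532 to 2.64 FPKM in shifted mothers and to 0.952 to 7.10 FPKM in control mothers. Mean correlations with the libraries of the same group were between 0.972 and 0.979 in shifted mothers and between 0.974 and 0.980 in control mothers. Control replicate 3 stood apart from the other control libraries in several clock genes, which was seen only once their values were read, and the calls made without it are given beside the count of all calls. The 2 schedules were deposited as separate tables. At any 1 time, for genes and lists alike, an effect of the table cannot be told apart from one of the schedule.

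At ZT6, 28 of 10376 genes tested differed between shifted and control mothers, which is 0.27% of them. Of these, 9 were higher in shifted mothers (0.0867%) and 19 were lower (0.183%). Among clock genes, Arntl, Npas2 and Nfil3 rose, and Dbp and Tef fell. A gene was called when its Benjamini-Hochberg adjusted p over all genes was under 0.05 in limma, on log2(FPKM + 1), and folds are on that scale, which understates the change of weakly expressed genes. At an unadjusted p under 0.05 the difference held for 990 genes (9.54%), and the median log2 change of all genes was -0.011. The 3 shifted and 3 control libraries did not overlap for 28 of the 28 called genes, against 13% of all genes tested (5.57% higher and 7.4% lower). Without control replicate 3, 8 genes were called, and 6 of them are among the 28, namely Arntl, Npas2, Nfil3, Dbp, Tef and Slc20a1. The rest of the 28 kept their direction without that library and had adjusted p from 0.0744 (Rnd1, Epha1 and Srd5a3) to 0.201 (Gnl3). The count was 5 without shifted replicate 1, 6 without control replicate 2, 7 without shifted replicate 3 and 17 without shifted replicate 2. In whole liver, fewer cells of a type and less RNA per cell cannot be told apart.

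**Figure D1:**
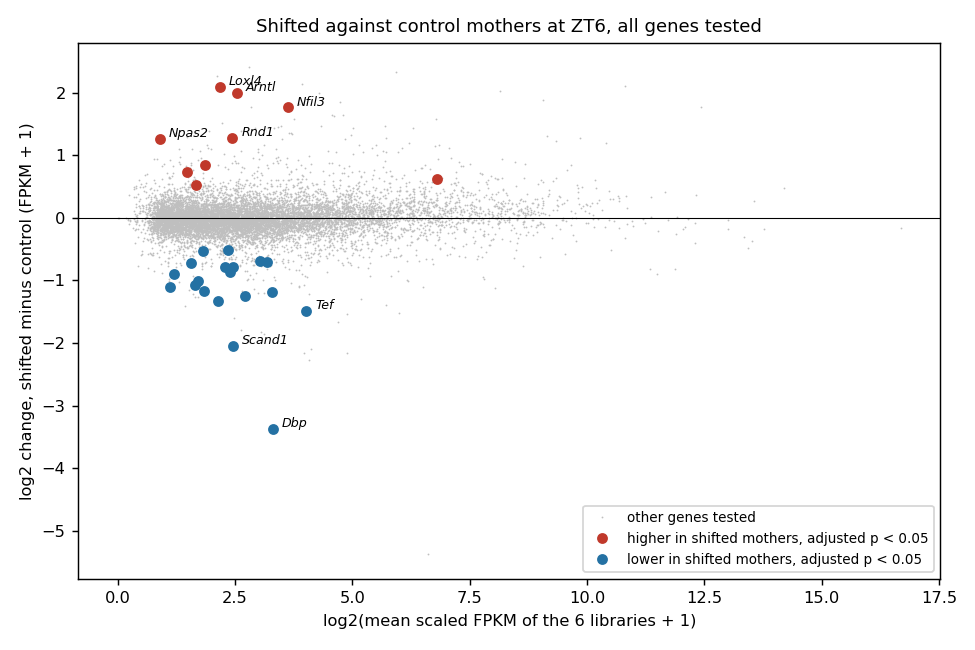
Log2 change at ZT6 (shifted minus control mothers, on FPKM + 1) of each gene tested, plotted against log2 of its mean scaled FPKM over the 6 libraries + 1. Red points are the 9 genes that were higher and blue points the 19 that were lower in shifted mothers at adjusted p under 0.05; Loxl4, Arntl and Nfil3 lie highest and Dbp lowest of the called genes.

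The activators of the core loop stood far above their controls. Arntl, the common partner of the activating pair, had 7.87, 6.98 and 10 FPKM in the 3 libraries of shifted mothers, against 0.851, 1.02 and 2.22 FPKM in those of control mothers. All 3 shifted values lay above all 3 control values, and control replicate 3 was the highest of the controls. The fitted difference was 2.0 on the log2 scale (SE 0.31, 4.01-fold, adjusted p = 0.00883), and the call ended without control replicate 2 or shifted replicate 3 (adjusted p up to 0.057). Npas2, which can take the place of CLOCK, had 1.09, 1.88 and 1.98 FPKM in shifted mothers, against 0.0784, 0.0841 and 0.124 FPKM in control mothers. It was above 1 FPKM in every shifted library and far under 1 FPKM in every control library. Its log2 difference of 1.26 (SE 0.13, adjusted p = 9.68e-05) had the smallest p of all genes. Clock itself overlapped between groups, at 3.83 ± 1.37 FPKM in shifted mothers and 2.92 ± 1.34 FPKM in control mothers (SD, n = 3 each, adjusted p = 0.809). In mm10 coordinates (GENCODE M21), Arntl lies on chromosome 7 from 113207465 to 113314126 on the plus strand and Npas2 on chromosome 1 from 39193731 to 39363236 on the plus strand.

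Of the D-box factors, the repressor rose and 2 of the 3 activators fell. Nfil3, the repressor, had 19.1, 16.3 and 18.1 FPKM in shifted mothers, against 3.04, 3.85 and 7.63 FPKM in control mothers. The 3 shifted libraries lay close together and well above the highest control library. The difference was 1.77 on the log2 scale (SE 0.24, 3.40-fold, adjusted p = 0.00205). Dbp, an activator with one of the deepest daily rhythms in liver, had 0.346, 0.171 and 0.192 FPKM in shifted mothers, against 30.7, 19.9 and 2.14 FPKM in control mothers. Dbp was nearly silent in the shifted livers, while the control livers were spread widely, with replicate 3 far below the other two. Its log2 change of -3.37 (SE 0.70, adjusted p = 0.0441) became -4.38 without control replicate 3 (adjusted p = 0.003), and the call ended without any one of the other 5 libraries (adjusted p from 0.141 to 0.214). Tef had 9.14, 5.94 and 7.47 FPKM in shifted mothers, against 26.0, 24.9 and 17.7 FPKM in control mothers. The groups were well apart, with a log2 change of -1.48 (SE 0.25, adjusted p = 0.0145), and the call ended without control replicate 2, shifted replicate 2 or shifted replicate 3 (adjusted p up to 0.0693). Hlf, the third activator, had 3.64, 3.42 and 3.85 FPKM in shifted mothers, against 6.18, 5.57 and 4.64 FPKM in control mothers, and was not called (log2 change -0.47, adjusted p = 0.28). Nfil3 lies on chromosome 13 (52967209 to 52981073, minus strand), Dbp on chromosome 7 (45705088 to 45710203, plus strand) and Tef on chromosome 15 (81802421 to 81826863, plus strand).

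None of the repressors of the core loop was called at ZT6. Per3 had 0.466, 0.358 and 0.432 FPKM in shifted mothers, against 4.47, 3.22 and 1.32 FPKM in control mothers (log2 change -1.41, SE 0.44, adjusted p = 0.259). Per1 had 1.11, 0.532 and 2.04 FPKM in shifted mothers, against 2.23, 3.27 and 4.17 FPKM in control mothers (log2 change -0.95, SE 0.28, adjusted p = 0.227). Per2 had 0.203, 0.444 and 0.399 FPKM in shifted mothers, against 1.21, 1.22 and 2.11 FPKM in control mothers (log2 change -0.89, SE 0.32, adjusted p = 0.363). For each of the 3 Period genes every shifted library lay under every control library, yet the change did not clear the test over all genes. Cry1 ran the other way, with 2.58, 2.56 and 4.65 FPKM in shifted mothers, against 0.751, 1.05 and 1.96 FPKM in control mothers (log2 change 0.92, SE 0.32, adjusted p = 0.324). Cry2 overlapped, at 5.67 ± 0.104 FPKM in shifted mothers and 6.09 ± 0.875 FPKM in control mothers. Ciart, a repressor of the activating pair, had 0.0938, 0.147 and 0.160 FPKM in shifted mothers, against 1.04, 1.33 and 0.624 FPKM in control mothers (adjusted p = 0.481).

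The nuclear receptors varied more between libraries of 1 group. Nr1d1 had 14.1, 4.00 and 5.63 FPKM in shifted mothers, against 32.8, 24.3 and 11.8 FPKM in control mothers, and the groups overlapped (log2 change -1.48, SE 0.73, adjusted p = 0.545). Nr1d2 also overlapped, at 6.05 ± 3.54 FPKM in shifted mothers and 12.4 ± 4.74 FPKM in control mothers. Rora and Bhlhe40 overlapped and were not called. Bhlhe41 was too weakly expressed to be tested, at 0.107 ± 0.045 FPKM in shifted mothers and 0.555 ± 0.45 FPKM in control mothers.

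Over the whole list of 19 clock genes, 18 were tested, 5 were called (3 higher and 2 lower), against 0.27% of all genes, and 12 had groups that did not overlap, 5 all higher and 7 all lower in shifted mothers, against 5.57% all higher and 7.4% all lower among all genes. The median log2 change of the 18 was -0.556, beside -0.011 for all genes tested.

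**Figure D2:**
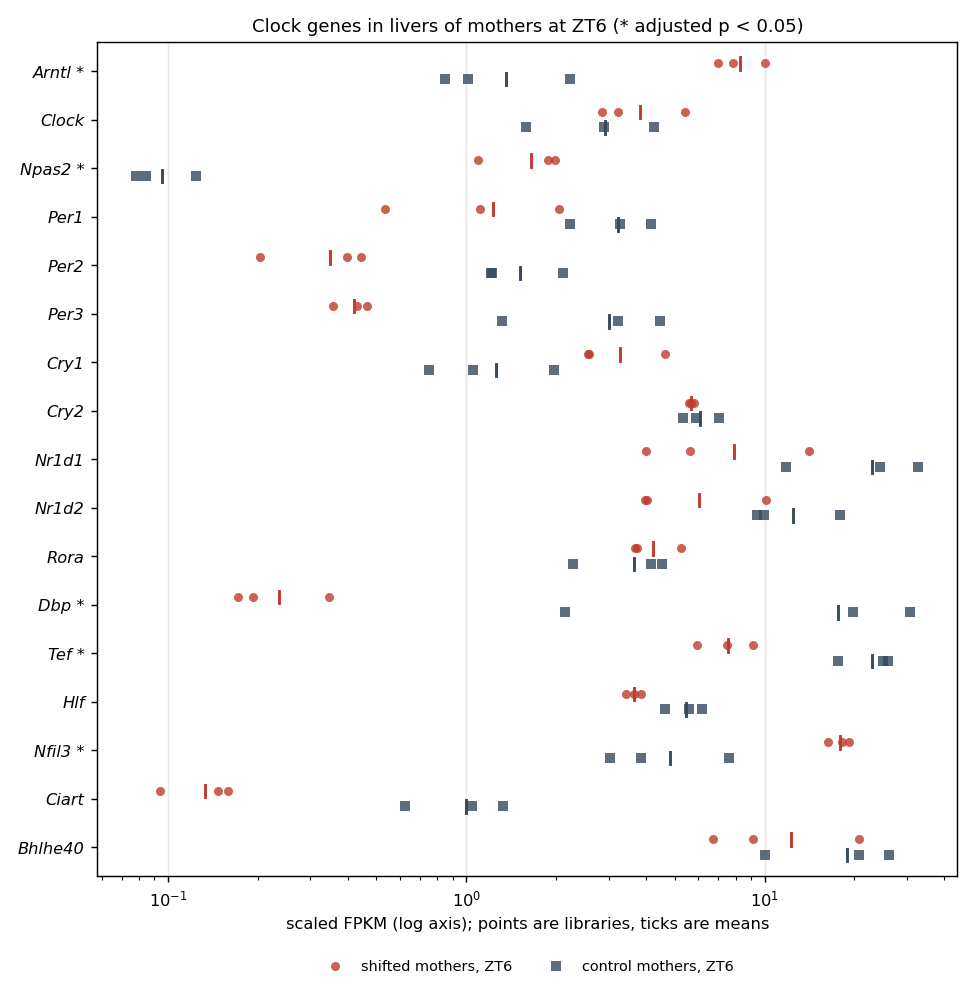
Scaled FPKM (log axis) of 17 of the 18 tested clock genes in each library at ZT6, with red circles for the 3 shifted and dark squares for the 3 control mothers, and short ticks for the group means. Arntl, Npas2 and Nfil3 lie right of their controls and Dbp and Tef left of them; the control square of Dbp at 2.14 FPKM is replicate 3.

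The starts of called genes were read from RefSeq (GRCm38.p6) as windows of 300 bases, 250 before and 50 after each start, since several called genes are known targets of the motifs named above. A window was held for 6 of the 9 higher genes and 12 of the 19 lower genes. Searched on both strands were 3 motifs, the E-box CACGTG, the nuclear receptor element TAGGTCA and the D-box TTANGTAA, none of which holds another within it. Of all 32841 windows, 7.15% held the E-box, 2.61% the receptor element and 2.32% the D-box. The receptor element stood in 2 of the 7 windows of higher genes (Arntl and Nfil3) and in 0 of the 14 windows of lower genes. The E-box stood in 5 of the 14 windows of lower genes, which belong to Coq10b, Slc20a1, Srd5a3 and Tef, and in 0 of the 7 of higher genes. The motifs and the windows shown were chosen with the sequences in view, so these counts are a description. The windows that hold a match in Arntl, Nfil3, Tef, Coq10b and Slc20a1 follow, 5′ to 3′ on the strand of the gene, with motif letters in capitals. They were taken from chr7:113207261-113207560 (plus strand) for Arntl, chr13:52980990-52981289 (minus) for Nfil3, chr15:81802423-81802722 and chr15:81811164-81811463 (plus) for the 2 starts of Tef, chr1:55052520-55052819 (plus) for Coq10b and chr2:129198523-129198822 (plus) for Slc20a1.
Arntl: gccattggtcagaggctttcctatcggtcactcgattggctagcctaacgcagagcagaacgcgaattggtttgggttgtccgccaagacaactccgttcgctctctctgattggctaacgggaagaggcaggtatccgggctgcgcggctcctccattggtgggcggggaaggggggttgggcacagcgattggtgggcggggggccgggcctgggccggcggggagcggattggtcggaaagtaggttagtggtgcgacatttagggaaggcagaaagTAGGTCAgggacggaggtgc
Nfil3: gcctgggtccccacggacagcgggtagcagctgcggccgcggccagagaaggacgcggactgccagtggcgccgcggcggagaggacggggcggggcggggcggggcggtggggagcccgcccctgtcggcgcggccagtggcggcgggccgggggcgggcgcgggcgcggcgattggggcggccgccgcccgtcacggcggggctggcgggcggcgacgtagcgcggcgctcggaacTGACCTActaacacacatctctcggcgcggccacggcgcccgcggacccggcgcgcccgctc
Tef, upstream start: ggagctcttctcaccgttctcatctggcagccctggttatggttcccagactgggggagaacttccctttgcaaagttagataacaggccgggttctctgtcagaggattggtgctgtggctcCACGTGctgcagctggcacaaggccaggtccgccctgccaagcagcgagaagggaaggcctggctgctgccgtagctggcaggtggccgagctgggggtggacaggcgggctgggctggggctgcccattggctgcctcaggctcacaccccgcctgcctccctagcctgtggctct
Tef, downstream start: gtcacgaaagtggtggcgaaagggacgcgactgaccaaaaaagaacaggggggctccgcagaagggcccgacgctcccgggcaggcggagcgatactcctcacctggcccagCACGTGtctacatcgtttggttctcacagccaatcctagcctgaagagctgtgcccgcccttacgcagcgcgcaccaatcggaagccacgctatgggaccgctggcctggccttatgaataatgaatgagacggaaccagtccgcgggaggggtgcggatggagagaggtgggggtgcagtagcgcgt
Coq10b: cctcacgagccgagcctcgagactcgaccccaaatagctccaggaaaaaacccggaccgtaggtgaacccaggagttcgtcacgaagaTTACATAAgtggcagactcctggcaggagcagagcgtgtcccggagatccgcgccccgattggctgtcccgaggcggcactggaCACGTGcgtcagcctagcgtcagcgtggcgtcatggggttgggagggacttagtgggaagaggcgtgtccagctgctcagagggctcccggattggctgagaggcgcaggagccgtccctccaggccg
Slc20a1: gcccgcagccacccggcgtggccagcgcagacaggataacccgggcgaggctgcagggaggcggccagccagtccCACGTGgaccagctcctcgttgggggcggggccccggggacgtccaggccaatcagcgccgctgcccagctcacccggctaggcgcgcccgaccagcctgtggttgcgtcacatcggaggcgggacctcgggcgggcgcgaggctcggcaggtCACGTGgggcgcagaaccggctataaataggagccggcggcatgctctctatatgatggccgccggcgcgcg
Counting the first base of the transcript as 1, the receptor element of Arntl begins at base 31 and that of Nfil3, which is written here as its reverse complement, 12 bases before the start. The E-boxes of Tef begin 127 and 138 bases before their starts. Coq10b holds a D-box, also written here as its reverse complement, that begins 162 bases before its start. The E-box of Coq10b begins 78 bases before that start, and Slc20a1 holds E-boxes that begin 175 and 22 bases before its start.

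Outside the clock list, 6 genes rose. Loxl4, a lysyl oxidase that cross-links collagen and elastin, had 5.52, 5.62 and 7.80 FPKM in shifted mothers, against 0.390, 0.653 and 1.13 FPKM in control mothers. It had the largest log2 change of the called genes that rose, 2.09 (SE 0.41, adjusted p = 0.0288), but was not called when any one of the 6 libraries was left out (adjusted p up to 0.141). Rnd1, a small GTPase that loosens actin fibres, had 7.49, 5.55 and 7.10 FPKM in shifted mothers, against 2.59, 1.82 and 2.1 FPKM in control mothers (log2 change 1.28, SE 0.22, adjusted p = 0.0194). Both genes were higher in each shifted library, with a wide gap to the controls, and Rnd1 kept its call in 2 of the 6 fits that left out 1 library. Arhgap24, a GTPase-activating protein for Rac, rose to 3.70 ± 0.857 FPKM in shifted mothers, against 1.61 ± 0.282 FPKM in control mothers (log2 change 0.84, adjusted p = 0.0469). Asap2, a GTPase-activating protein for Arf, rose to 2.51 ± 0.799 FPKM in shifted mothers, against 1.08 ± 0.101 FPKM in control mothers (log2 change 0.73, adjusted p = 0.0308). Cnbp and Zbtb5 encode zinc finger proteins that bind nucleic acids. Cnbp averaged 135 ± 6.99 FPKM in shifted mothers and 87.2 ± 2.97 FPKM in control mothers (log2 change 0.62, adjusted p = 0.0208), and Zbtb5 averaged 2.76 ± 0.284 FPKM in shifted mothers and 1.61 ± 0.157 FPKM in control mothers (log2 change 0.52, adjusted p = 0.0196). Cnbp lost its call in each of the 6 fits that left out 1 library, Arhgap24 and Asap2 kept theirs in 1 of them and Zbtb5 in 2.

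The genes outside the clock list that fell had varied roles. Slc20a1, a sodium-coupled phosphate transporter, had 2.44, 2.73 and 3.59 FPKM in shifted mothers, against 9.12, 8.06 and 7.56 FPKM in control mothers (log2 change -1.25, SE 0.17, adjusted p = 0.00205). The libraries of each group lay close together, and the call held in all 6 fits that left out 1 ZT6 library, as it did for Npas2 and Nfil3. Each of the other called genes lost its call in at least 1 of these fits, with its direction kept in all 6. Coq10b, a coenzyme Q-binding protein of mitochondria, had 5.94, 3.75 and 5.54 FPKM in shifted mothers, against 12.3, 11.4 and 14.2 FPKM in control mothers (log2 change -1.18, SE 0.23, adjusted p = 0.0273), and lost its call in each of those 6 fits. Pla2g12a, a secreted phospholipase A2, had 0.977, 1.91 and 1.43 FPKM in shifted mothers, against 3.92, 4.09 and 7.94 FPKM in control mothers (log2 change -1.33, SE 0.26, adjusted p = 0.0288), and its log2 change without control replicate 3 was -1.05 (adjusted p = 0.156). Each of the 3 was lower in every shifted library. Scand1, which encodes a SCAN domain protein, had 0.507, 2.75 and 0.665 FPKM in shifted mothers, against 8.40, 7.70 and 7.12 FPKM in control mothers (log2 change -2.05, SE 0.38, adjusted p = 0.0208). Zfp771, a zinc finger gene, averaged 1.22 ± 0.597 FPKM in shifted mothers and 3.93 ± 0.881 FPKM in control mothers (log2 change -1.17, adjusted p = 0.0196). Scand1 and Zfp771 have transcripts of 68.4% and 68.7% GC, beside a median of 49.6% over the tested genes with an annotated transcript. With smooth trends in GC content and length taken out of each library, Zfp771 was not called (log2 change -0.51, adjusted p = 0.338), while Scand1 was (log2 change -1.44, adjusted p = 0.00358).

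Histone H2B genes made up 6 of the 19 lower calls. Hist1h2ba had 0.564, 1.43 and 1.12 FPKM in shifted mothers, against 2.86, 3.36 and 3.51 FPKM in control mothers (log2 change -1.08, SE 0.19, adjusted p = 0.0196). Hist1h2bj (log2 change -1.01, adjusted p = 0.0318) and Hist1h2bp (-0.89, adjusted p = 0.0208) were lower as well, and so were Hist1h2bf, Hist1h2bh and Hist1h2bl (-0.86, -0.78 and -0.72). Of 12 H2B genes tested, 10 were lower in every shifted library than in any control library (7.4% of all genes were), and the median log2 change of the 12 was -0.65. The abundant Hist1h2bc was not among the 10, at 130 FPKM in shifted mothers and 162 FPKM in control mothers (adjusted p = 0.52). Nor was Hist2h2be, which was slightly higher in shifted mothers (log2 change 0.24, adjusted p = 0.629). None of the 8 tested genes of the other histone families was called, but lower values were not limited to H2B. Hist1h1c, of the H1 family, averaged 10.9 FPKM in shifted mothers and 38.9 FPKM in control mothers (log2 change -1.66, adjusted p = 0.146). Of 5 H4 genes, 2 were lower in every shifted library, with a median log2 change of -0.42. Over all 20 histone genes tested, 13 were lower in every shifted library and 0 were higher in every one. H2B genes are nearly identical copies whose reads can be split between them in counting, so the level of any one is uncertain, and most histone mRNAs carry no poly(A) tail, on which these libraries were selected. With the GC and length trends removed, 4 of the 6 lost their call, Hist1h2ba (log2 change -1.08, adjusted p = 0.12), Hist1h2bj (-0.92, adjusted p = 0.139), Hist1h2bf (-0.80, adjusted p = 0.193) and Hist1h2bl (-0.47, adjusted p = 0.52). Hist1h2bp (-0.99, adjusted p = 0.0197) and Hist1h2bh (-0.87, adjusted p = 0.0235) kept theirs. Without control replicate 3 none of the 6 was called (adjusted p from 0.0869 to 0.156), with log2 changes from -1.03 to -0.64.

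The called genes beyond these lay outside the rule for named genes or entered it by another contrast, and are named here after their values were seen. Gnl3, a GTP-binding protein of the nucleolus, had 5.98, 5.02 and 4.63 FPKM in shifted mothers, against 8.56, 7.21 and 11.5 FPKM in control mothers (log2 change -0.68, adjusted p = 0.0441). Epha1, an ephrin receptor, Erf, a repressor of the ETS family, Plec, a linker of the cytoskeleton, and Srd5a3, a reductase of dolichol synthesis, had log2 changes of -0.71, -0.79, -0.53 and -0.51. The unnamed clone 4930539J05Rik changed by -1.11.

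**Figure D3:**
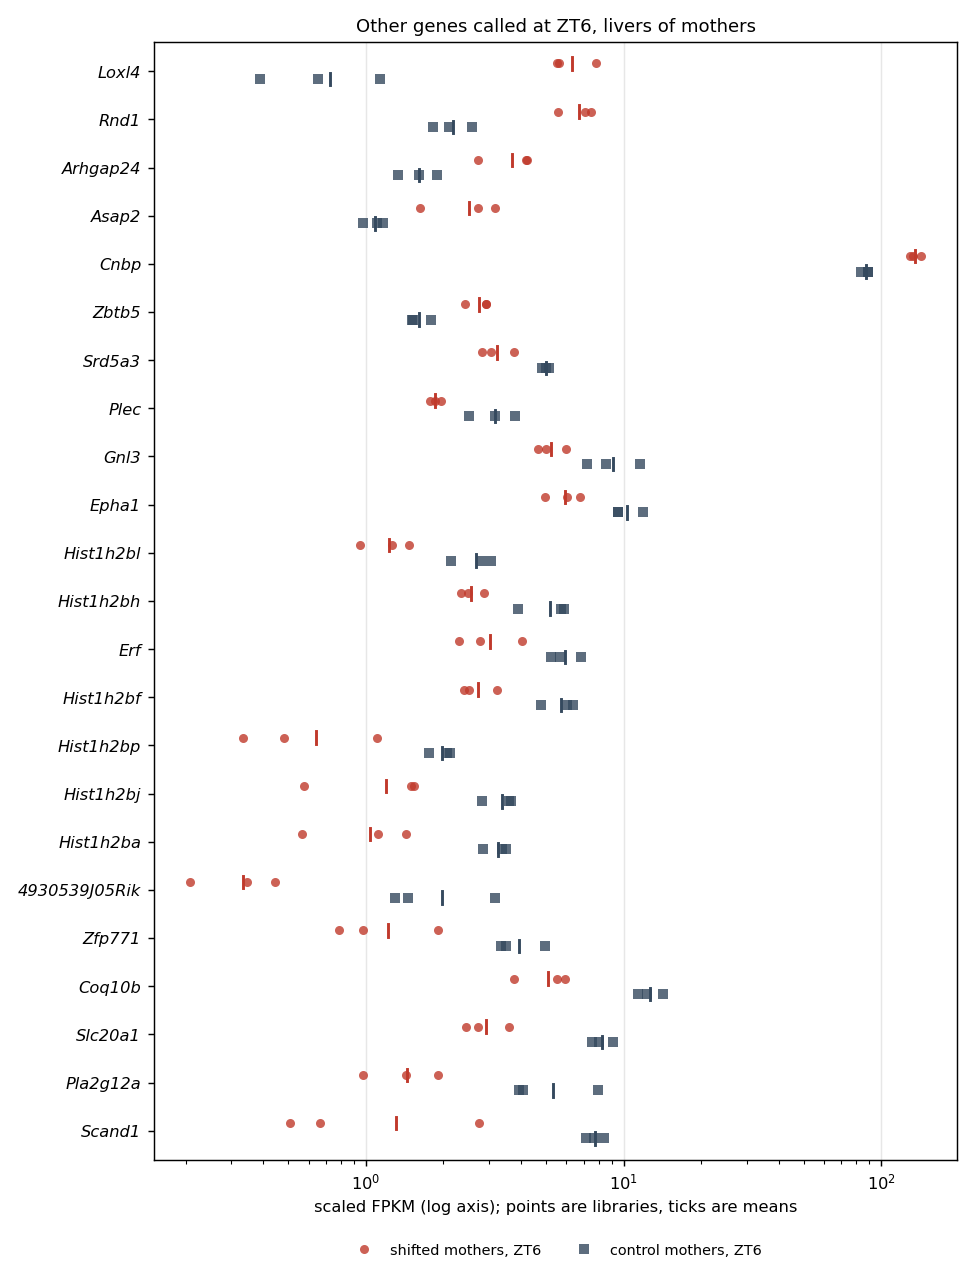
Scaled FPKM (log axis) of the 23 called genes outside the clock list in each library at ZT6, with red circles for the 3 shifted and dark squares for the 3 control mothers, and short ticks for the means. The shifted and control libraries are separate for each gene, and Cnbp, at 135 and 87.2 FPKM on average, is the most abundant.

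Whether a difference belongs to ZT6 was tested by setting it against the mean difference at ZT0, ZT12 and ZT18 in the same fit. This contrast called 106 genes (1.02%), 71 with a more positive (0.684%) and 35 with a more negative difference at ZT6 (0.337%), and 10.2% of genes met it at an unadjusted p under 0.05. Without shifted replicate 3 it called 62. Of the 28 genes called at ZT6, 14 passed it, 8 higher and 6 lower. Arntl, at 2.0 on the log2 scale at ZT6, differed by -1.54 at ZT0, -0.40 at ZT12 and -2.44 at ZT18 (contrast 3.47, SE 0.36, adjusted p = 3.57e-05). Tef, at -1.48 at ZT6, differed by 2.06 at ZT0, 0.12 at ZT12 and 1.36 at ZT18 (contrast -2.66, SE 0.28, adjusted p = 3.57e-05). The sign of the schedule difference was therefore opposite at ZT6 to that at ZT0 and ZT18 for both genes. This held for 12 of the 14 genes, the exceptions being Zbtb5, higher by 0.22 at ZT0, and Gnl3, lower by 0.01 at ZT0. The other 12 are Arntl, Npas2, Nfil3, Asap2, Rnd1, Loxl4, Arhgap24, Tef, Coq10b, Slc20a1, Dbp and Epha1. The contrast itself favours genes whose sign turns between times, so this count only describes the genes it selected. Npas2 had a contrast of 1.95 (SE 0.15), Nfil3 of 2.38 (SE 0.28), Coq10b of -2.22 (SE 0.26) and Slc20a1 of -1.54 (SE 0.20). For Slc20a1 the differences at the other times were small, between 0.13 and 0.58, and not called (adjusted p = 0.747 at ZT0, 0.946 at ZT12 and 0.0653 at ZT18). For Epha1 they were 0.19 at ZT0, -0.06 at ZT12 and 0.17 at ZT18 (adjusted p = 0.487, 0.979 and 0.486). The sign at the other times is therefore uncertain for Slc20a1 and Epha1.

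The other 14 genes did not pass this contrast, and 13 of them had the same sign at all 4 times, all but Plec. The same sign does not mean the same size. Pla2g12a, at -1.33 at ZT6, differed by -0.24 at ZT0, -8.4e-05 at ZT12 and -0.06 at ZT18 (adjusted p = 0.0525 for the contrast). Cnbp, at 0.62 at ZT6, differed by 0.40, 0.07 and 0.03 at those times (adjusted p = 0.128 for the contrast). Scand1 was lower in shifted mothers by 1.96 at ZT0, 1.94 at ZT12 and 1.01 at ZT18 on the log2 scale, beside 2.05 at ZT6 (contrast -0.41, adjusted p = 0.866). Hist1h2ba was lower by 0.83, 0.75 and 0.61 at the same 3 times (adjusted p = 0.673 for the contrast), and the median log2 change of the 12 H2B genes was -0.25 at ZT0, -0.49 at ZT12 and -0.47 at ZT18. These genes thus differed from control at ZT6 without a detectable difference between ZT6 and the rest of the day. A gene can also pass the contrast through its other times. Per2, not called at ZT6, passed (contrast -2.23, SE 0.37, adjusted p = 0.00413) with a difference of 2.57 at ZT0, where it averaged 9.78 ± 3.6 FPKM in shifted mothers and 0.772 ± 0.36 FPKM in control mothers. Mpzl1, a cell surface glycoprotein, passed likewise (contrast 1.10, SE 0.15, adjusted p = 0.000366) with 2.39, 2.15 and 2.21 FPKM in shifted mothers at ZT6, against 0.978, 1.18 and 1.45 FPKM in control mothers. In all, 11 of the 18 clock genes tested passed it, 3 more positive and 8 more negative at ZT6.

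**Figure D4:**
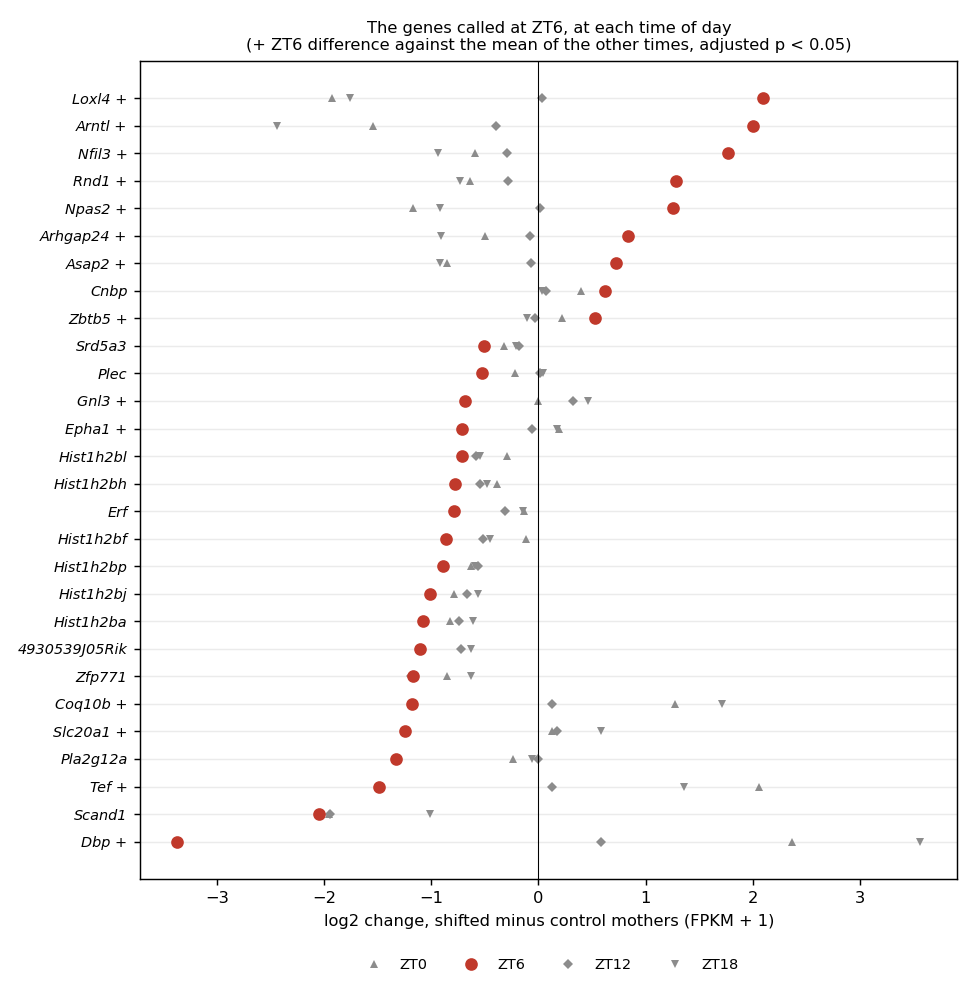
Log2 change (shifted minus control mothers, on FPKM + 1) of the 28 called genes at ZT6 (red circles) and at ZT0, ZT12 and ZT18 (grey symbols). The 14 genes marked + differ at ZT6 from the mean of the other times; Arntl, Loxl4, Tef and Dbp have grey symbols on the other side of zero, while Scand1 and the H2B genes have them on the same side.

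The shifted livers at ZT6 were then set beside control livers at each time of day. These comparisons share the shifted libraries. Against control mothers at ZT0, limma called 0 genes (970, or 9.35%, at an unadjusted p under 0.05). That unadjusted share was 9.54% against control mothers at ZT6, so the nearness to ZT0 given below is that of clock genes. Against control mothers at ZT12 it called 492 genes (4.74%), 187 higher (1.8%) and 305 lower (2.94%) in shifted mothers, and 16.3% passed unadjusted. Against control mothers at ZT18 it called 140 genes (1.35%), 14 higher (0.135%) and 126 lower (1.21%), and 12.6% passed unadjusted. Leaving out any 1 library other than shifted replicate 2 lowered the count to between 216 and 276 against ZT12 and to between 43 and 73 against ZT18, and against ZT0 leaving out 1 library gave 0 to 6. Against ZT18, 225 genes were called with values as deposited and 218 with no filter on low values. The clock genes called numbered 0 of 18 against ZT0, 5 against ZT6, 11 against ZT12 and 4 against ZT18. The nearest control mean on the log2 scale was that of ZT0 for 13 of the 18, of ZT18 for 3 (Arntl, Clock and Hlf), of ZT6 for Cry2 and of ZT12 for Rora. The median gap over the 18 genes was 0.258 to ZT0, 0.936 to ZT6, 1.32 to ZT12 and 0.742 to ZT18.

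Single clock genes show how near the shifted livers at ZT6 were to control livers at ZT0. Arntl averaged 8.28 ± 1.6 FPKM in shifted mothers at ZT6, against 7.02 ± 0.48 FPKM in control mothers at ZT0 (log2 difference 0.20, SE 0.31). Npas2 averaged 1.65 ± 0.49 FPKM in shifted mothers at ZT6, against 1.49 ± 0.17 FPKM in control mothers at ZT0 (0.08, SE 0.13). Dbp averaged 0.236 ± 0.095 FPKM in shifted mothers at ZT6, against 0.294 ± 0.33 FPKM in control mothers at ZT0 (-0.04, SE 0.70). None of these differences exceeded its standard error, which for Dbp is itself wide. Nfil3 stood farther off, at 17.9 ± 1.4 FPKM in shifted mothers at ZT6 and 12.5 ± 1.8 FPKM in control mothers at ZT0 (0.49, SE 0.24, adjusted p = 0.541), and was above the control mean of each of the 4 times. Slc20a1 was lower in shifted mothers at ZT6 than in control mothers at ZT0 by a log2 difference of -1.01 (SE 0.17, adjusted p = 0.0786), at ZT12 of -1.23 (adjusted p = 0.000388) and at ZT18 of -0.76 (adjusted p = 0.0277). Scand1 was likewise low against ZT0 (-1.87, adjusted p = 0.0786), ZT12 (-2.09, adjusted p = 0.00304) and ZT18 (-1.74, adjusted p = 0.0239).

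**Figure D5:**
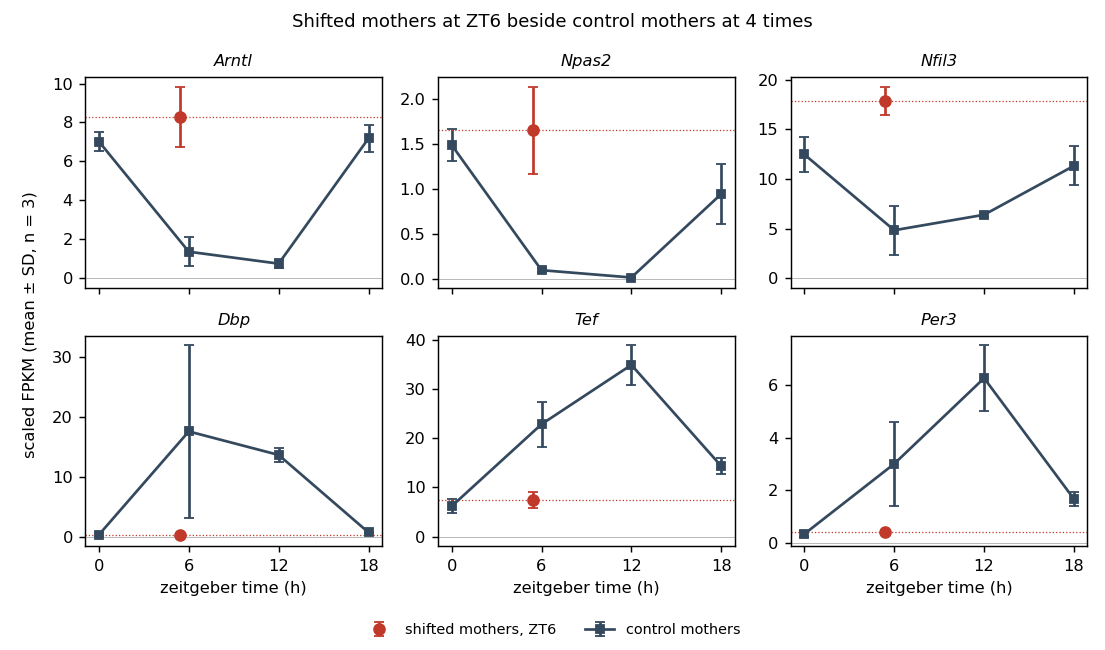
Scaled FPKM (mean ± SD, n = 3) of 6 clock genes in shifted mothers at ZT6 (red circle, drawn slightly left of ZT6, with a dotted line at its mean) and in control mothers at the 4 times (dark squares joined by a line). The red circles of Arntl, Npas2, Dbp, Tef and Per3 lie near the control mean at ZT0 and away from that at ZT6.

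Genes known as outputs of the liver clock were described as a list of their own. Of 22 tested of a list of 25 output genes, 1 was called, Coq10b, against 0.27% of all genes, while 10 were lower and 3 higher at an unadjusted p under 0.05, against 9.54% of all genes in either direction, with a median log2 change of -0.611 beside -0.011 for all genes. Alas1, the rate-limiting enzyme of heme synthesis, had 40.4, 19.3 and 25.3 FPKM in shifted mothers, against 56.6, 71.0 and 95.3 FPKM in control mothers (log2 change -1.39, SE 0.33, adjusted p = 0.0988). It was lower in every shifted library without passing at ZT6, and its difference from the other times did pass (contrast -2.04, SE 0.38, adjusted p = 0.00969). Across the other 35 lists, which cover liver pathways and markers of cell types, 0 members were called.

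The members of smallest p in several metabolic lists are given as values. Ppp1r3c, which targets a phosphatase to glycogen, had 33.7, 25.3 and 47.9 FPKM in shifted mothers, against 13.4, 13.8 and 6.05 FPKM in control mothers (log2 change 1.63, SE 0.51, adjusted p = 0.265). Every shifted library was above every control library. Slco1a1, an organic anion transporter, had 12.2, 6.95 and 10.9 FPKM in shifted mothers, against 1.81, 3.26 and 1.59 FPKM in control mothers (log2 change 1.78, SE 0.46, adjusted p = 0.159). Cyp2b10, a drug-metabolizing cytochrome P450, had 47.9, 32.9 and 42.5 FPKM in shifted mothers, against 13.3, 14.5 and 9.65 FPKM in control mothers (log2 change 1.65, SE 0.48, adjusted p = 0.227). Herpud1, a protein of endoplasmic reticulum stress, had 56.3, 37.3 and 81.3 FPKM in shifted mothers, against 108, 134 and 120 FPKM in control mothers (log2 change -1.10, SE 0.25, adjusted p = 0.0851). These 3 genes also had separate groups and did not pass. Ppp1r3c (3.23, adjusted p = 0.00833), Cyp2b10 (2.81, adjusted p = 0.0128) and Herpud1 (-1.51, adjusted p = 0.0107) did pass the contrast of ZT6 with the other times. Stat5a, a transcription factor of growth hormone signalling, averaged 4.39 ± 0.337 FPKM in shifted mothers and 2.88 ± 0.53 FPKM in control mothers (adjusted p = 0.146 at ZT6 and 0.00544 for the contrast). Fatty acid synthesis (20 genes tested), fat oxidation and ketogenesis (32), cholesterol synthesis (24), oxidative phosphorylation (25) and ribosomal proteins (24) had median log2 changes of 0.226, -0.205, -0.175, 0.07 and 0.09, with 0 members called.

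Macrophage and Kupffer cell markers were the marker list of largest median log2 change among those with at least 3 tested members, 0.484 over 15 tested, of which 6 were higher in every shifted library (background 5.57% of all genes) and 0 were called. At the other times their median was negative, at -0.612 at ZT0, -0.328 at ZT12 and -0.789 at ZT18. The median of endothelial markers was 0.117 at ZT6 and -0.581, -0.265 and -0.248 at those times. The summed level of the macrophage and Kupffer cell markers ran from 257 to 365 FPKM in shifted mothers and from 173 to 272 FPKM in control mothers. Of these 15 markers, 0 were at 0. Mrc1, the macrophage mannose receptor, had 5.53, 4.90 and 5.73 FPKM in shifted mothers, against 3.70, 3.41 and 4.00 FPKM in control mothers (log2 change 0.44, adjusted p = 0.239). The part of these cells in the results above was not tested. Endothelial markers summed to 89.9 to 120 FPKM in shifted mothers and 81.3 to 111 FPKM in control mothers, and erythroid markers to 14.2 to 27.4 FPKM in shifted mothers and 12.5 to 17.2 FPKM in control mothers. Muscle and adipose markers summed to 651 to 805 FPKM in shifted mothers and 45.3 to 638 FPKM in control mothers. Car3, an abundant carbonic anhydrase, made up most of that sum, at 712, 629 and 790 FPKM in shifted mothers, against 621, 429 and 25 FPKM in control mothers. Its log2 change of 1.89 became 0.45 without control replicate 3, and neither value was called (adjusted p = 0.386 and 0.893).

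Fetal livers of the same time of day were tested as a separate set of libraries. Of 11994 genes, 1 was called between fetuses of shifted and of control mothers (0.00834%), the unnamed clone 1700003F12Rik (log2 change -1.31, SE 0.21, adjusted p = 0.0482; 0 to 2 genes with 1 library left out), and 302 genes (2.52%) passed unadjusted. Of the 28 genes called in mothers, 24 were tested in fetuses and 0 passed. Arntl averaged 5.89 FPKM in fetuses of shifted mothers and 5.66 FPKM in fetuses of control mothers (log2 change 0.05, adjusted p = 0.998). Tef averaged 6.07 FPKM in fetuses of shifted mothers and 8.35 FPKM in fetuses of control mothers (log2 change -0.40, adjusted p = 0.998). Scand1 came nearest to passing, at 3.22 FPKM in fetuses of shifted mothers and 21 FPKM in fetuses of control mothers (log2 change -2.40, adjusted p = 0.0576). Zfp771 also had the sign seen in mothers (log2 change -1.12, adjusted p = 0.175). So did the 6 H2B genes, with log2 changes from -0.98 (Hist1h2ba) to -0.37 (Hist1h2bp) and adjusted p = 0.998 for each. Gnl3 (0.18) and Slc20a1 (0.06), which were lower in mothers, had the opposite sign in fetuses. The same was true of Nfil3 and Asap2 (-0.08), which were higher in mothers. Nfil3 averaged 5.02 FPKM in fetuses of shifted mothers and 6.82 FPKM in fetuses of control mothers (log2 change -0.36, adjusted p = 0.998). Dbp, Npas2, Loxl4 and Rnd1 were too low in fetuses to be tested, Dbp at 0.233 FPKM in fetuses of shifted mothers and 0.328 FPKM in fetuses of control mothers. The difference between mothers and fetuses was not tested.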

How the data were processed

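The deposited values are FPKM, which the authors normalized to gene length and sequencing depth, in 1 table for each schedule and stage. Alignment with TopHat2 2.1.1 and quantification with Cufflinks 2.2.1 against mm10 are per the submitters' processing notes, and RNA was poly(A)-selected, stranded and extracted with TRIzol per the labels' protocols. No source used here states the annotation or the filters. Of 24883 table entries, 817 that share 280 symbols were removed, which left 24066 genes. FPKM were divided by median-of-ratios factors over the 24 mother libraries. Only genes that reached 1 FPKM in 3 or more of these libraries were tested. Values were fitted as log2(FPKM + 1) in limma 3.58.1 (R 4.3.3) with 1 mean for each schedule and time, 16 residual degrees of freedom and an intensity trend in the moderated variances. All p-values are two-sided and Benjamini-Hochberg adjusted over all genes tested, with a threshold of 0.05. The 24 fetus libraries were scaled and fitted on their own. The fit and its filter were tested on simulated data. GC content, length and gene positions come from the longest GENCODE M21 transcript (GRCm38), read with Python 3.11.15. Depth is unknown, so no counting intervals are given.

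Named genes are the 10 called genes of largest log2 change in each direction that have a symbol, a mean of 1 FPKM or more in a group and groups that do not overlap, the clock list, the called members (up to 3) or the member of smallest p of each other list, and the 6 of smallest p in each direction of the contrast of ZT6 with the other times. Only 9 genes rose, so all 9 are named. Values of 2 genes that the rule names are not reported here, and both stay in the counts over lists. The comparisons and the 37 gene lists were chosen with earlier results of these data known. As alternatives, the fit was rerun with a pseudocount of 0.1, no filter, values as deposited, upper quartile scaling and no intensity trend. It was also rerun with the replicate number as a block and with only the 6 ZT6 libraries. Single libraries of the groups compared were left out in turn, and for the contrast with the other times only ZT6 libraries. Libraries of shifted mothers at ZT0, ZT12 and ZT18 were never left out. Removal of GC and length trends (splines with 4 degrees of freedom) was chosen after the data were seen. Offspring tables were not used here.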

Additional observations from a re-analysis of the deposited data

Results flagged for a closer look

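The difference between shifted and control mothers at ZT6 itself differed from the mean difference at ZT0, ZT12 and ZT18 for 27 named genes, by the limma contrast over all 10376 genes at adjusted p under 0.05. Among genes of the clock list, that difference between times was 3.47 on the log2 scale for Arntl, 1.95 for Npas2, 2.38 for Nfil3, -5.54 for Dbp, -2.66 for Tef, -0.81 for Hlf, -1.60 for Per1, -2.23 for Per2, -2.80 for Per3, -2.15 for Ciart and -2.25 for Nr1d2. Genes outside that list with a more positive difference at ZT6 were Loxl4 (3.31), Ppp1r3c (3.23), Cyp2b10 (2.81), Rnd1 (1.83), Asap2 (1.34), Arhgap24 (1.34), Mpzl1 (1.10), Stat5a (0.83), Mrc1 (0.79) and Zbtb5 (0.50). Those with a more negative difference were Coq10b (-2.22), Alas1 (-2.04), Slc20a1 (-1.54), Herpud1 (-1.51), Gnl3 (-0.94) and Epha1 (-0.81). The same contrast called 1.02% of all genes. The 27 cannot be set against that share, since the naming rule takes in the 6 of smallest p in each direction of this contrast. For Dbp, Nfil3 and Per3 the control library of replicate 3 at ZT6 lay between the shifted libraries and the other control libraries, and without it the contrast called 79 genes in all.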

How the results depend on the processing

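The number of genes called at ZT6, 28, was between 20 and 27 with a pseudocount of 0.1, no filter, values as deposited, upper quartile scaling, no intensity trend, the replicate number as a block (23 genes), and GC and length trends removed, and the direction of each named called gene held in all of them. With no filter, 18 of the 27 genes called are among the 28. That held for 18 of 20 with GC and length trends removed and for 26 of 27 with values as deposited. In the rest of these settings all genes called are among the 28. With only the 6 ZT6 libraries 12 genes were called, 10 higher and 2 lower, of which 5 are among the 28. With the replicate block on those 6 libraries the count was 19, 13 higher and 6 lower, of which 7 are among the 28. Leaving out 1 ZT6 library gave 5 to 19 calls at ZT6 (5 without shifted replicate 1, 6 without control replicate 2, 7 without shifted replicate 3, 8 without control replicate 3, 17 without shifted replicate 2) and 62 to 86 for the contrast with the other times. Npas2 was called in 15 of 15 alternatives, Nfil3 and Slc20a1 in 14, Arntl in 13, Rnd1 and Tef in 11, Loxl4 in 8, Coq10b in 7 and Dbp in 4. Comparisons with control mothers at other times moved more: against ZT0 from 0 to 2 genes with values as deposited and 5 with GC and length trends removed (0 to 6 with 1 library left out), against ZT12 from 492 to between 216 and 393 with 1 library left out, and against ZT18 from 140 to 218 with no filter and 225 with values as deposited (43 to 146 with 1 library left out). The cause was not tested. In fetuses the count of 1 became 0 with a pseudocount of 0.1, with no filter and with the replicate block, 2 with upper quartile scaling, and 0 to 2 with 1 library left out. The sign turned, without a call, for 5 genes with 1 library left out, whose log2 changes ran from -0.159 to 0.0128 for Cry2 (highest without control replicate 1), from -0.0434 to 0.330 for Rora (lowest without control replicate 2), from -0.00681 to 0.415 for Sdhb and from -0.0948 to 0.443 for Cela1 (both lowest without control replicate 3), and from -0.161 to 0.410 for Krt19 (lowest without shifted replicate 2).

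Replicates with the same number did not deviate together at ZT6 (correlations of 0.08, -0.07 and -0.04). With so few libraries in a group this cannot exclude a pairing of the samples. With the replicate number as a block, Dbp (adjusted p = 0.0848), Arhgap24 (0.0742), Gnl3 (0.0714), 4930539J05Rik (0.0924) and Hist1h2bl (0.0571) were not called, and the contrast with the other times called 115 genes. The log2 change at ZT6 correlated weakly with GC content (Spearman correlation -0.116) and transcript length (-0.134) across 10012 genes, which are not independent replicates. Called genes that fell had a median GC content of 55.2%, called genes that rose 52.3%. FPKM without counts leaves the precision of genes near 1 FPKM unknown.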

Other observations

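Some entries changed by more than Loxl4 at ZT6 without passing the test, and were picked out after their values were seen. Mir8112, a small RNA entry, had the largest change, at 14.6 FPKM in shifted mothers and 180 FPKM in control mothers (log2 change -5.38, SE 1.25, adjusted p = 0.0926). Erdr1 averaged 5.09 FPKM in shifted mothers and 26.9 FPKM in control mothers (log2 change -2.27, adjusted p = 0.443). Mup17, one of the nearly identical major urinary protein genes whose reads can be shared, averaged 6.08 FPKM in shifted mothers and 0.614 FPKM in control mothers (log2 change 2.27, adjusted p = 0.443).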
